A study of Homo sapiens with 8 samples.

Results

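The 9 genes described here carry out and control antigen presentation by major histocompatibility complex (MHC) class I molecules: the heavy chains HLA-B, HLA-C and HLA-E, the light chain B2M, the peptide transporter subunits TAP1 and TAP2, the loading factor TAPBP, the trimming enzyme ERAP1 and the transcriptional regulator NLRC5. They were chosen by function, by their gene symbols, from the 24351 genes to which the transcripts of the table were assigned. All 9 passed the filter on low values, which kept 14905 genes.

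Messenger RNA was sequenced from ARP1 and H929, which are established human multiple myeloma cell lines, that is, lines grown from a cancer of plasma cells. Each line was represented by 4 libraries: CHEK1 overexpression, the control of overexpression, CHEK1 knockdown and the control of knockdown. CHEK1 encodes a kinase of the DNA damage checkpoint. There was 1 library per line and genotype, so a genotype had n = 2, with the lines as its replicates, and a p-value here reflects only how far these libraries spread. The labels do not say how the constructs or their controls were made, or whether a line was a single clone.

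Class I molecules show peptides from inside the cell to cytotoxic T cells. A heavy chain pairs with B2M in the endoplasmic reticulum, where TAP1 and TAP2 together bring in peptides from the cytosol, TAPBP holds the empty heavy chain at the transporter and ERAP1 cuts the peptides to length. NLRC5 acts at promoters of class I genes together with factors that bind conserved promoter elements, and interferons raise most of the set. Nucleated cells in general, plasma cells included, carry class I molecules.

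Promoters of genes of this pathway are known for shared short elements, and 4 of them are printed because they belong to the genes whose levels the results turn on. An entry was found for 7 of the 9 genes (RefSeq, build GRCh38.p14). Each stretch is the 250 bases before the start given by that entry, 5′ to 3′ on the gene's strand. The stretches are chr6:31357180-31357429 (minus strand) for HLA-B, chr6:31272093-31272342 (minus strand) for HLA-C, chr15:44711267-44711516 (plus strand) for B2M and chr6:32853705-32853954 (minus strand) for the first of the TAP1 entries. Capitals mark matches, on either strand, to TGACG (the half-site of the cAMP response element), CCAAT (the CCAAT box), AANNGAAA (a core of interferon response elements) and the NF-kB consensus.
HLA-B: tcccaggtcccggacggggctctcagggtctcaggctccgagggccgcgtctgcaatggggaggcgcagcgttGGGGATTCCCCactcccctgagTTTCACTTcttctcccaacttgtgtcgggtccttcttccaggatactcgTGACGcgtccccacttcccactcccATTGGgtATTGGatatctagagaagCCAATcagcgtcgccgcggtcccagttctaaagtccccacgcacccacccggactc
HLA-C: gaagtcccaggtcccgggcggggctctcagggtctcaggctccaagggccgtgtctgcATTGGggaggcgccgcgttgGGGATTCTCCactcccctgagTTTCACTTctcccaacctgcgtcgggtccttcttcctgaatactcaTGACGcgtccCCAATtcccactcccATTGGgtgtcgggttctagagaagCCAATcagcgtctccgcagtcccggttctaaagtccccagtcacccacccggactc
B2M: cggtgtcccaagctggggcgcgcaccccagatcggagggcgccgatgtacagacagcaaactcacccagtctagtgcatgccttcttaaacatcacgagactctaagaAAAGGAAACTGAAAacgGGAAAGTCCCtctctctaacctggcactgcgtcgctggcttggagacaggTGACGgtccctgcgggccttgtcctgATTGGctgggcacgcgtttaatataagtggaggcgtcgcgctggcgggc
TAP1: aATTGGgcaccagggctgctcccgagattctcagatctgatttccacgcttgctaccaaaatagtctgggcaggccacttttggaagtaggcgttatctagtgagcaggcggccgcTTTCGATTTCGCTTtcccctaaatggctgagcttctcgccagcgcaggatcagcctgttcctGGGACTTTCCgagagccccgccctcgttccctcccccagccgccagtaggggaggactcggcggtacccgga

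The HLA-B, HLA-C and B2M stretches each held all 4 kinds of match, and the TAP1 stretch held 3, lacking TGACG. In HLA-B and HLA-C the NF-kB consensus, the interferon core and TGACG lay in the same order at nearly the same places: TGACG began 106 bases before the start in HLA-B and 105 in HLA-C, and the interferon core began 155 and 151 bases before it. Their CCAAT matches differed, beginning 81, 74 and 56 bases before the start in HLA-B and 192, 95, 80 and 56 in HLA-C. In B2M the interferon core, at 142 bases, came before the NF-kB consensus, at 125 bases, the reverse of the heavy chains. TAPBP held its interferon core 18 bases before the start and no CCAAT or TGACG, and TAP2 held the interferon core at 62 bases and TGACG at 35 bases. All starts here are those of the promoter entries and can differ from those of the transcripts measured. The TAP1 stretch lies wholly inside the transcript TAP1-201, whose start on the same strand is at 32853978. Likewise the TAPBP stretch lies inside the transcript TAPBP-234, whose start is at 33314387. Matches to different motifs did not overlap in these stretches, whereas matches to 1 motif overlapped each other in places. Over 35116 promoter stretches of the same length, 21.2% held TGACG, 32.0% CCAAT, 20.3% the interferon core and 9.96% the NF-kB consensus, and 0.0598% (21) held all 4. The motifs were chosen with these sequences in view, so the matches describe the letters and are no evidence that a factor binds there.

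**Figure D1:**
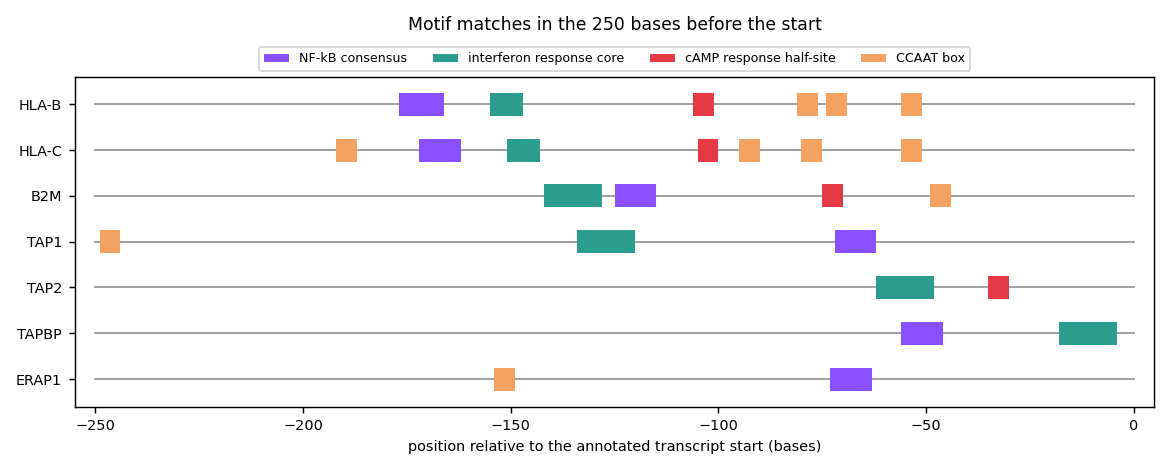
Positions of motif matches, in bases relative to the transcript start of the promoter entry, for the 7 genes with such an entry (the first entry of each gene). Each coloured block is a match on either strand. HLA-B, HLA-C and B2M hold all 4 kinds, with TGACG between 106 and 75 bases before the start.

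The libraries were checked first against the targeted gene and against cell type markers. CHEK1 stood at 114 FPKM (fragments per kilobase of a transcript relative to the library's total, added up over each gene) with overexpression and 78.2 in its control in ARP1, and at 107 and 81.6 in H929. In the libraries labelled knockdown it stood at 51.6 against 61.0 in ARP1 and at 84.8 against 80.7 in H929, so the H929 library labelled knockdown was not lower than its control. Any direction drawn from that library rests on a label that CHEK1 mRNA does not bear out. All 9 plasma cell markers passed the filter, and their summed level ranged from 1726 to 3039 FPKM. SLAMF7 passed only through ARP1, where it stood at 13.3 to 27.4 FPKM, against 0.0778 to 0.201 in H929. The summed level ranged from 0.379 to 14.3 FPKM for 5 T and NK cell markers (CD3D and NKG7 at 0 in every library), from 0.738 to 2.48 for 5 myeloid markers and from 1.59 to 17.1 for 6 markers of stroma and epithelium. The highest T and NK cell value, in the H929 overexpression library, was almost all GNLY. In these bulk samples, fewer cells with a transcript and less RNA per cell cannot be told apart.

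The 9 genes were expressed in all 8 libraries, over a range of about 2 orders of magnitude in FPKM. B2M was the most abundant, with a mean of 1418 FPKM, and was the gene of rank 71 among all genes. HLA-B followed at 419 FPKM (rank 202), then HLA-E at 142, TAPBP at 92.2, TAP2 at 66.8, TAP1 at 51.3, HLA-C at 48.2, ERAP1 at 47.3 and NLRC5 at 12.7. The ranges over libraries of HLA-C, TAP1, TAP2 and ERAP1 overlapped one another, and that of TAPBP overlapped that of TAP2, so their order is not fixed by these data. The ranges of TAPBP and HLA-C also overlapped, but TAPBP was above HLA-C in every library. The HLA-B level was 7.74 to 10.4 times the HLA-C level in every library, and the B2M level was 2.58 to 5.24 times that of HLA-B.

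**Figure D2:**
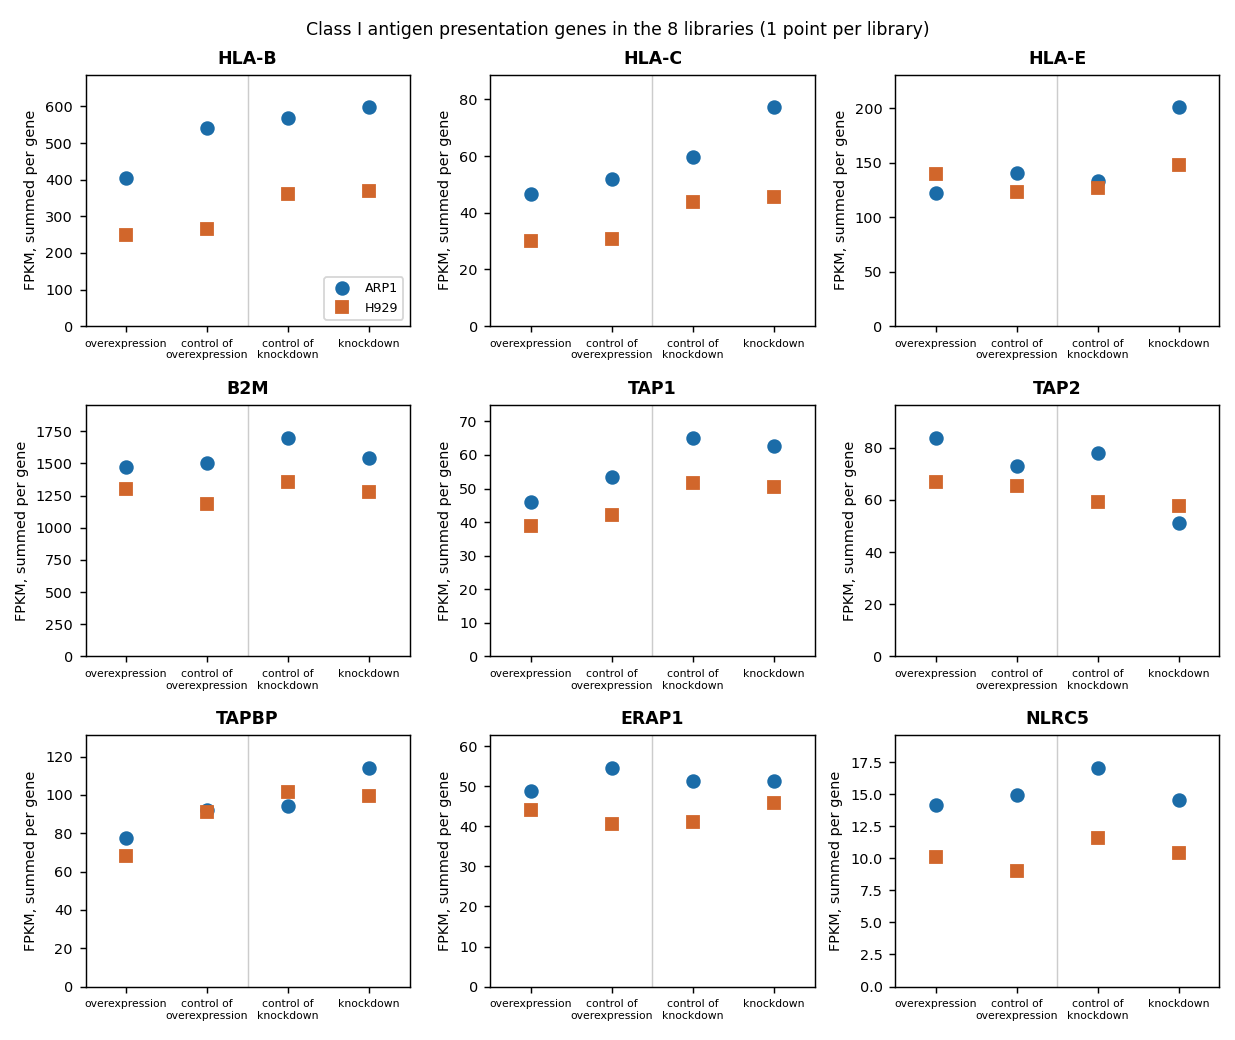
FPKM, summed per gene, of the 9 genes in each of the 8 libraries (1 point per library, circles for ARP1 and squares for H929, with a vertical line between the overexpression arm and the knockdown arm). Every axis starts at 0. HLA-B ranges from 248 to 598 FPKM, and its ARP1 points all lie above its H929 points.

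Between the lines, 5 of the 9 genes were higher in ARP1 than in H929 and none was lower, by limma on log2(FPKM + 1) with genotype as a block and a threshold of 0.05 on the Benjamini-Hochberg adjusted p. HLA-B and HLA-C differed most, 1.70-fold and 1.56-fold, followed by NLRC5 at 1.44-fold, TAP1 at 1.23-fold and B2M at 1.21-fold. The comparison called 27.1% of all genes tested, and 13.7% were called higher in ARP1. The median log2 difference was 0.28 over the 9 genes and 0.00 over all genes tested. The lines differ throughout the transcriptome, and the 4 libraries of 1 line are not stated to be independent cultures. The lines can also carry different alleles of HLA-B and HLA-C, which can match the reference transcripts unequally. What alleles add to the differences in HLA-B and HLA-C was not tested, and no alternative setting addressed it.

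HLA-B, a classical heavy chain that presents peptides to CD8 T cells, stood in ARP1 at 404 FPKM with overexpression, 541 in the control of overexpression, 569 in the control of knockdown and 598 with knockdown. In H929 it stood at 248, 266, 361 and 368 in the same order. Every H929 library lay below every ARP1 library. The log2 difference between the lines was 0.77 (SE 0.10, limma adjusted p = 0.003).

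HLA-C, a classical heavy chain that is also a ligand of inhibitory receptors on NK cells, stood in ARP1 at 46.8, 52.0, 59.7 and 77.2 FPKM in the same order. In H929 it stood at 29.9, 30.7, 43.8 and 45.7. The line ranges did not overlap, although the highest H929 value came close to the lowest ARP1 value. The log2 difference was 0.64 (SE 0.10, limma adjusted p = 0.006). HLA-B and HLA-C kept their calls between the lines under each of the 18 alternative settings run for that comparison, at log2 differences of 0.68 to 0.81 and 0.57 to 0.70.

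HLA-E, whose product presents signal peptides of other class I chains to NK cell receptors, stood in ARP1 at 122, 141, 133 and 201 FPKM and in H929 at 139, 123, 126 and 147. The line ranges overlapped, and the ARP1 value with knockdown lay well above the other 7. The log2 difference between the lines was 0.13 (SE 0.12, limma adjusted p = 0.450).

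B2M, the invariant light chain, stood in ARP1 at 1476, 1506, 1701 and 1539 FPKM. In H929 it stood at 1301, 1185, 1355 and 1279.7. The ranges did not overlap, and the log2 difference was 0.28 (SE 0.08, limma adjusted p = 0.046). That call is marginal: it held under 7 of the 18 alternative settings, with adjusted p from 0.027 to 0.189.

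TAP1, which forms the transporter with TAP2, stood in ARP1 at 46.1, 53.3, 65.2 and 62.6 FPKM and in H929 at 38.8, 42.0, 51.7 and 50.5. The line ranges overlapped, but ARP1 was higher within each genotype, and the log2 difference was 0.30 (SE 0.08, limma adjusted p = 0.040). The TAP1 call held under 9 of the 18 alternative settings, with adjusted p from 0.022 to 0.170. The settings with one library left out come in pairs, because the other library of that genotype then adds nothing to the line difference. Either library of a genotype left out thus gave the same log2 difference, and the counts of settings include both. These differences were 0.26 to 0.31 for B2M and 0.29 to 0.32 for TAP1. Both calls were lost in all of these settings except those without a library labelled knockdown.

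TAP2 stood in ARP1 at 83.9, 73.1, 77.8 and 51.1 FPKM and in H929 at 66.7, 65.2, 59.0 and 57.5. The lowest of all 8 values belonged to the ARP1 library labelled knockdown. The log2 difference between the lines was 0.18 (SE 0.12, limma adjusted p = 0.294). It was 0.29 when either library labelled knockdown was left out, since both fits draw it from the same libraries. The TAP1 level was 0.55 times the TAP2 level in the ARP1 overexpression library, 0.73 in its control, 0.84 in the control of knockdown and 1.22 in the library labelled knockdown. In H929 this ratio was 0.58, 0.64, 0.88 and 0.88, so in both lines it was lower in the overexpression arm than in the knockdown arm. How many other pairs of genes do so was not counted.

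TAPBP, also called tapasin, which bridges heavy chains to the transporter, stood in ARP1 at 77.6, 91.9, 94.1 and 114 FPKM and in H929 at 68.3, 90.9, 101 and 99.4. The lines overlapped, with a log2 difference of 0.07 (SE 0.09, limma adjusted p = 0.598). ERAP1 stood in ARP1 at 48.9, 54.7, 51.4 and 51.4 FPKM and in H929 at 44.1, 40.6, 41.2 and 45.8. Its line ranges did not overlap, yet the log2 difference of 0.26 (SE 0.09) missed the threshold (limma adjusted p = 0.084).

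NLRC5, which drives transcription of class I genes, stood in ARP1 at 14.1, 14.9, 17.1 and 14.6 FPKM. In H929 it stood at 10.1, 8.99, 11.6 and 10.4, below every ARP1 value. The log2 difference was 0.52 (SE 0.11, limma adjusted p = 0.014). The NLRC5 call was lost when a control library was left out. The log2 difference was then 0.47 without either control of overexpression and 0.52 without either control of knockdown. In all, 5 of the 9 genes (HLA-B, HLA-C, B2M, ERAP1 and NLRC5) had every ARP1 library above every H929 library, a pattern that 13.3% of all genes tested showed. Beside this, the plasma cell markers summed to 2364 to 3039 FPKM in ARP1 libraries and to 1726 to 2096 in those of H929, and the summed markers of stroma and epithelium 1.59 to 5.48 and 7.21 to 17.1. The part of these markers in the line difference was not tested.

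With CHEK1 overexpression, HLA-B, HLA-C, TAP1 and TAPBP had lower values than their control in both lines, but no gene of the 9 passed the test. The comparison of overexpression with its control called 0 of the 9 genes (limma), against 0.00671% of all genes tested, and 1 of the 9 (TAPBP) had an unadjusted p under 0.05, as had 4.45% of all genes tested. TAPBP had a log2 difference of -0.32 (SE 0.13, unadjusted p = 0.045, limma adjusted p = 0.994), with -0.24 in ARP1 and -0.41 in H929. HLA-B had -0.26 (SE 0.14), with -0.42 in ARP1 and -0.10 in H929, and TAP1 had -0.16 (SE 0.12), with -0.21 and -0.11. HLA-C had -0.15 and -0.03 in the lines. TAP2 was the one gene with higher values in both lines, at 0.20 in ARP1 and 0.03 in H929. HLA-E, B2M, ERAP1 and NLRC5 had opposite signs in the lines.

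In the libraries labelled knockdown, HLA-E had the largest difference from the control, and again no gene of the 9 passed. The comparison called 0 of the 9 genes (limma), against 0.0134% of all genes tested, and 1 of the 9 (HLA-E) had an unadjusted p under 0.05, as had 9.14% of all genes tested. HLA-E had a log2 difference of 0.41 (SE 0.17, unadjusted p = 0.046, limma adjusted p = 0.539), with 0.59 in ARP1 and 0.22 in H929. HLA-C had 0.37 and 0.06 in the lines, and HLA-B 0.07 and 0.03. TAP2 had -0.60 in ARP1 and -0.04 in H929, for a fitted difference of -0.32 (SE 0.16, limma adjusted p = 0.577). B2M had -0.14 and -0.08, NLRC5 -0.21 and -0.14 and TAP1 -0.06 and -0.04, with fitted differences of -0.11 (SE 0.12), -0.18 (SE 0.15) and -0.05 (SE 0.12). Except for ERAP1 (0.00 and 0.15), the differences were larger in ARP1 than in H929, which was not tested.

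The direct test of the difference of the overexpression and knockdown effects called 0 of the 9 genes, against 0.0134% of all genes tested, and 1 of the 9 (TAPBP) and 7.98% of all genes had an unadjusted p under 0.05. TAPBP had the largest difference, -0.45 (SE 0.19, unadjusted p = 0.049, limma adjusted p = 0.622), followed by TAP2 at 0.43 (SE 0.23) and HLA-E at -0.42 (SE 0.23). With n = 2 lines, an absent call does not show that the levels were alike: on simulated data for the overexpression comparison, 34 of 100 genes shifted by 1 on the log2 scale were called, and 77 of 100 shifted by 2. The shifted genes were picked at random, and their shifts exceed the fitted genotype differences of the 9 genes, so these rates do not apply to the 9.

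**Figure D3:**
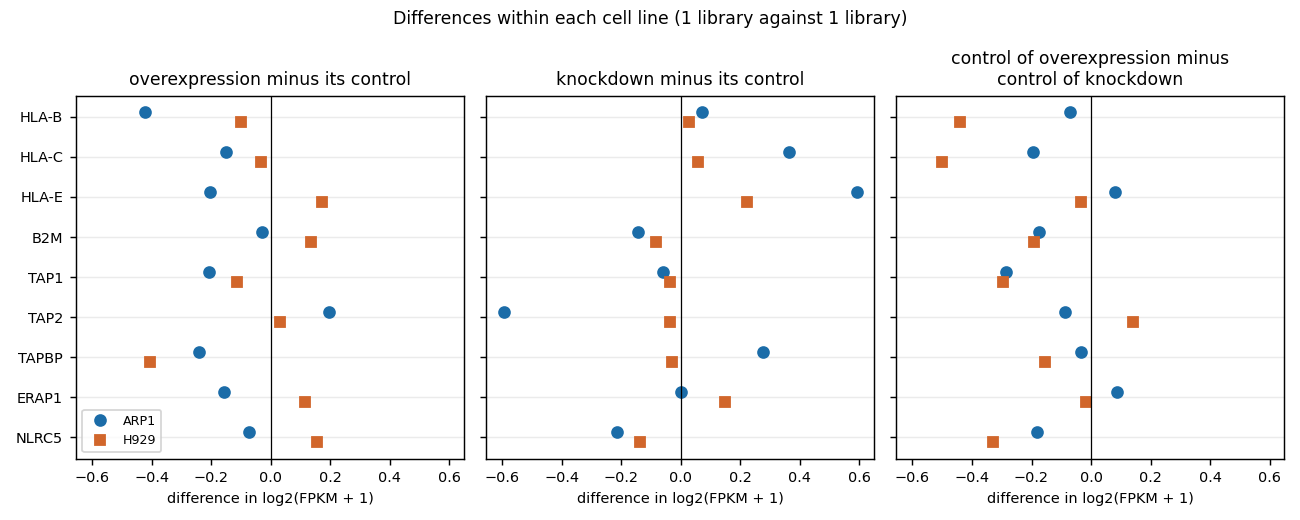
Differences in log2(FPKM + 1) within each line for overexpression (left) and knockdown (middle), each against its own control, and for one control against the other (right; circles ARP1, squares H929, 1 library against 1 library). In the right panel HLA-B, HLA-C, B2M, TAP1, TAPBP and NLRC5 lie below 0 in both lines, HLA-C at -0.20 and -0.50.

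For several of the 9 genes, the controls differed from each other by as much as the treated libraries differed from them. On the log2 scale, HLA-C in the control of overexpression minus HLA-C in that of knockdown was -0.20 in ARP1 and -0.50 in H929, giving -0.35 (SE 0.14, unadjusted p = 0.040, limma adjusted p = 0.438). TAP1 had -0.28 and -0.29 in the lines, giving -0.29 (SE 0.12, unadjusted p = 0.047, adjusted p = 0.458). HLA-B had -0.07 and -0.44, NLRC5 -0.18 and -0.33, and B2M -0.18 and -0.19. The comparison of the controls called 0 of the 9 genes, against 0.0537% of all genes tested, with 2 of the 9 and 10.7% of all genes tested at an unadjusted p under 0.05. Set against the other control of its line, the H929 overexpression library had -0.54 for HLA-B in place of -0.10, and -0.53 for HLA-C in place of -0.03.

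Read by arm, HLA-B, HLA-C, TAP1 and TAPBP followed one pattern. In each line, both libraries of the overexpression arm (overexpression and its control) lay below both libraries of the knockdown arm for these 4 of 9 genes, and for 0 of the 9 genes above them. Of all genes tested, 10.6% showed the first pattern and 10.5% the opposite. For HLA-B the arms stood at 404 and 541 FPKM against 569 and 598 in ARP1, and at 248 and 266 against 361 and 368 in H929. The pattern was singled out after the values were seen. A fit of the whole arms, also added after seeing the data, called 0 of the 9 genes, against 1.35% of all genes tested, and 4 of the 9 had an unadjusted p under 0.05, as had 22% of all genes tested. It gave -0.50 for HLA-C (SE 0.11, limma adjusted p = 0.060), -0.41 for HLA-B (SE 0.11, 0.087), -0.35 for TAP1 (SE 0.09, 0.084) and -0.32 for TAPBP (SE 0.12, 0.172). TAP2 had the opposite sign in that fit, at 0.24 (SE 0.13, adjusted p = 0.316). CHEK1 mRNA separated by arm in ARP1, at 114 and 78.2 FPKM against 61.0 and 51.6. In H929 it did not, at 107 and 81.6 against 80.7 and 84.8. Effects of CHEK1 level and of anything else that differed between the arms cannot be told apart in this fit. The summed plasma cell markers did not follow the arms in one direction: they stood at 2364 and 2892 FPKM against 2761 and 3039 in ARP1, and at 2038 and 2096 against 1726 and 1922 in H929. The summed T and NK cell markers were higher in the overexpression arm in both lines, at 1.14 and 0.727 FPKM against 0.379 and 0.502 in ARP1 and at 14.3 and 3.25 against 1.46 and 0.587 in H929. A different gene carried this in each line. In H929 it was GNLY, and in ARP1 it was CD3E at low levels (0.673 and 0.591 against 0.198 and 0.207 FPKM). GNLY did not separate by arm in ARP1 (0.421 and 0.136 against 0.181 and 0.294), and CD3E was at 0 in H929. The part of these markers in the arm pattern of the 9 genes was not tested.

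Within a line, HLA-C and HLA-B varied most among the 9 genes (SD of 0.29 and 0.25 on the log2 scale after centring on the line), and ERAP1 and B2M least (0.07 and 0.08). Among 9046 protein-coding genes with a mean of at least 5 FPKM, the nearest to HLA-C in the line-centred values of the 8 libraries were TMUB2, NAGLU, TMEM120A and ZFYVE1, at root mean square distances of 0.069 to 0.072. Those nearest to HLA-B were SIRT6, USP35, TMEM219 and TMEM120A, at 0.046 to 0.062. TMEM120A stood on both lists, and none of these genes is on the lists of the class I pathway used here.

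The remaining genes of the pathway were taken from lists set by function. Among the other class I and class I-like heavy chains, 6 of 8 were tested, and 0 passed in any comparison of genotypes. Between the controls 1 was higher and 5 were lower in the control of overexpression, with a median log2 difference of -0.22 (-0.01 over all genes tested). MR1, which presents vitamin B metabolites, stood at 5.77, 8.09, 12.1 and 12.8 FPKM in ARP1 and at 10.9, 10.2, 12.4 and 15.8 in H929. It had both overexpression-arm libraries below both knockdown-arm libraries in each line, and its log2 difference between the controls was -0.39 (SE 0.21, limma adjusted p = 0.539). With overexpression 4 of the 6 were higher and 2 lower. HLA-F, a nonclassical heavy chain, had -0.53 in ARP1 and -0.58 in H929 (limma adjusted p = 0.994). FCGRT, a receptor that recycles antibody and pairs with B2M, had 0.53 and 0.59 (limma adjusted p = 0.994). HLA-G was listed at 0 in every library, and CD1D, which presents lipids, stood at no more than 0.0845 FPKM. Between the lines FCGRT was higher in ARP1 (0.80, limma adjusted p = 0.030). MICB, a stress ligand of NK cells that does not pair with B2M, was lower (-0.47, limma adjusted p = 0.012).

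Of 5 loading chaperones and editors, 0 passed in any of the 5 comparisons. Between the controls 4 were higher and 1 lower in the control of overexpression (median 0.37). CALR, CANX and PDIA3 had both overexpression-arm libraries above both knockdown-arm libraries in each line, the reverse of HLA-B, HLA-C, TAP1 and TAPBP. CALR, a chaperone that holds the heavy chain during loading, stood at 876 and 1035 FPKM in the overexpression arm and 575 and 370.2 in the knockdown arm of ARP1, and at 816 and 909 against 669.9 and 586 in H929. Between the controls the log2 difference was 0.64 for CALR, 0.51 for CANX, a membrane chaperone of newly made heavy chains, and 0.37 for PDIA3, a disulfide isomerase of the loading complex. The limma adjusted p were 0.389, 0.332 and 0.389. These chaperones serve glycoproteins in general and not class I molecules alone. TAPBPL and ERAP2 did not separate by arm in both lines.

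Of 5 genes of peptide supply, the immunoproteasome subunits PSMB8, PSMB9 and PSMB10 and the activator subunits PSME1 and PSME2, 0 passed in any comparison of genotypes (median between the controls -0.01, with 2 higher and 3 lower). PSMB8 had -0.69 and -0.39 in the lines between the controls (-0.54, limma adjusted p = 0.364). PSME2 had both overexpression-arm libraries above both knockdown-arm libraries in each line, at 312 and 301 FPKM against 266 and 180.0 in ARP1 and at 281 and 332 against 254 and 235 in H929. PSMB9, whose start lies beside that of TAP1, was higher in ARP1 (0.44, adjusted p = 0.047), close to the threshold. Calls of genes on the pathway lists were not followed through the alternative settings. Of the 3 constitutive partners PSMB5, PSMB6 and PSMB7, PSMB6 was higher in ARP1 (0.74, adjusted p = 0.028).

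Of 14 regulators, 0 passed in any comparison of genotypes and 4 between the lines (3 higher in ARP1 and 1 lower). Among all genes tested, 27.1% passed between the lines. Between the controls the median was 0.03, with 8 higher and 6 lower. RFX5, a subunit of the factor that binds class I and class II promoters with NLRC5 or its relative, stood in ARP1 at 55.8, 64.3, 77.2 and 108 FPKM and in H929 at 36.0, 50.0, 74.6 and 73.3. It was the one regulator with both overexpression-arm libraries below both knockdown-arm libraries in each line. It was also higher in ARP1 (0.40, limma adjusted p = 0.049), close to the threshold. ATF1, which binds cAMP response elements, and IFNGR2, an interferon gamma receptor chain, were higher in ARP1 (0.48 and 0.83), and JAK1, a kinase of interferon receptors, was lower (-0.68). IRF2 had 0.60 with knockdown (adjusted p = 0.538), with 1.06 in ARP1 and 0.15 in H929.

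**Figure D4:**
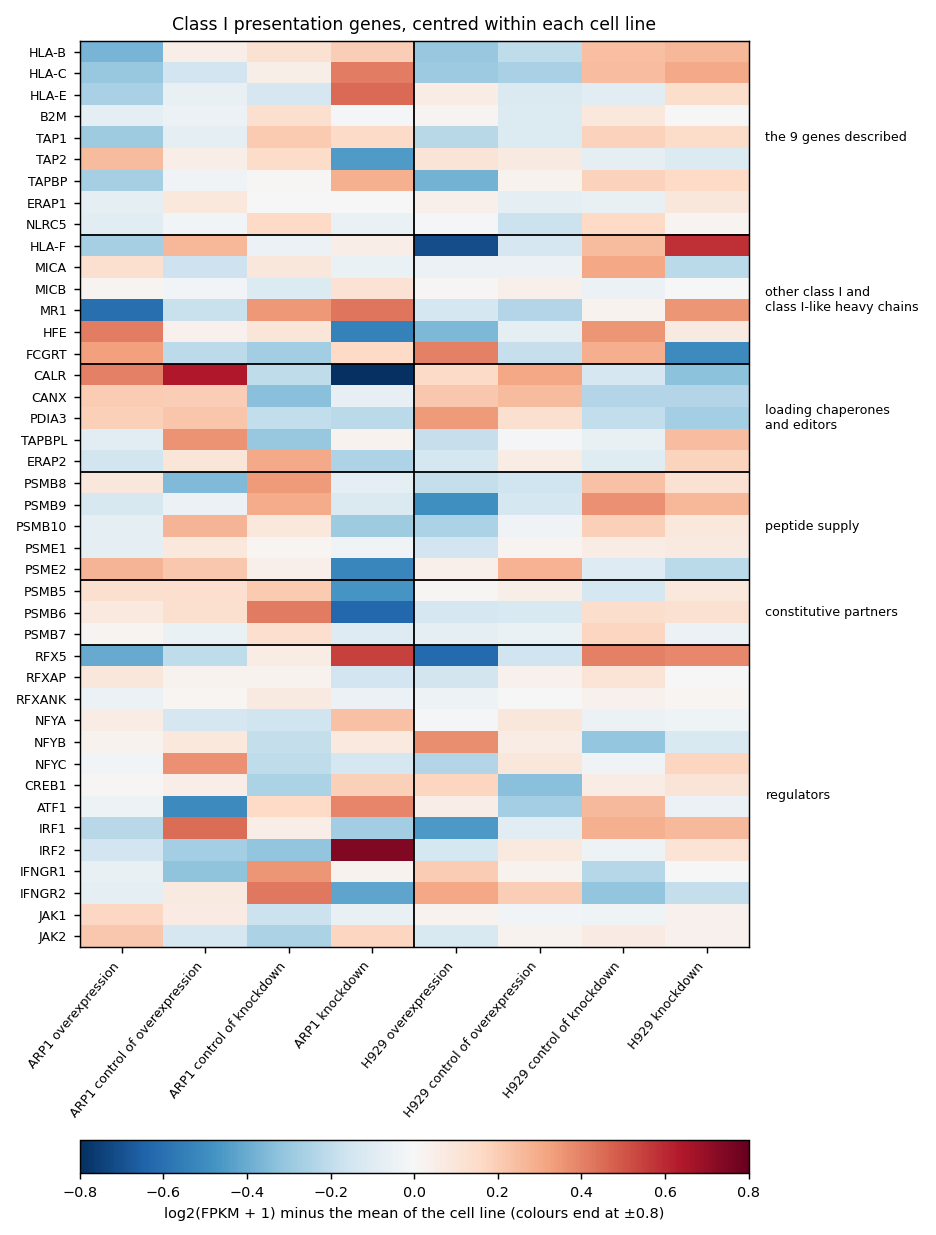
log2(FPKM + 1) minus the mean of the cell line, for the 9 genes and the other tested genes of the pathway lists (rows) in the 8 libraries (columns), red above and blue below the line's mean, with colours ending at ±0.8. HLA-B, HLA-C and TAP1 are blue or pale on the left and red or pale on the right of each line, and CALR, CANX and PDIA3 show the reverse.

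The table gives FPKM per transcript, so the make-up of each gene could be read as well. These shares come from the authors' estimates for overlapping transcripts, have 1 value per library and were not tested. B2M was estimated from 3 transcripts. In the libraries labelled knockdown, B2M-202 held 25.1% of the gene (ARP1) and 25.8% (H929), against 31.9% to 40.0% in the other 6 libraries. B2M-204 held 68.6% and 67.7% there, against 53.1% to 62.7%. Both libraries labelled knockdown thus stood apart from all others in B2M transcript make-up, while the B2M total did not pass. The split was singled out after the values were seen, and how many other genes show one like it was not counted.

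NLRC5 was estimated from 8 transcripts of at least 0.01 FPKM. NLRC5-201, a long form that starts upstream of NLRC5-203, held under 0.01% of the gene in the ARP1 overexpression library, 16.0% in its control, 46.0% in the control of knockdown and 30.9% in the library labelled knockdown. In H929 its share was 8.4%, 7.4%, 35.7% and 45.9%. In each line the NLRC5-201 share was lower in both libraries of the overexpression arm than in both of the knockdown arm. How many other transcripts show such a split was not counted. NLRC5-203 held 64.4%, 45.0%, 20.4% and 48.5% in ARP1 and 68.1%, 54.3%, 36.0% and 25.5% in H929, so its ARP1 arms overlapped.

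TAP2 was estimated from 3 transcripts. In ARP1 the level of TAP2-202 was 28.1 FPKM in the knockdown control and 13.8 in the library labelled knockdown. TAP2-205 held 17.7% of the gene in the ARP1 overexpression library and 1.0% in its control, and 11.1% with knockdown and 4.1% in its control. In H929 its share was 0.4%, 0.2%, 8.6% and 1.3% in the same order. HLA-B included a transcript of 240 nt, HLA-B-258, which reached 16.7 FPKM in one library only, the overexpression control of ARP1. All transcripts listed for the 9 genes are annotated as protein-coding.

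**Figure D5:**
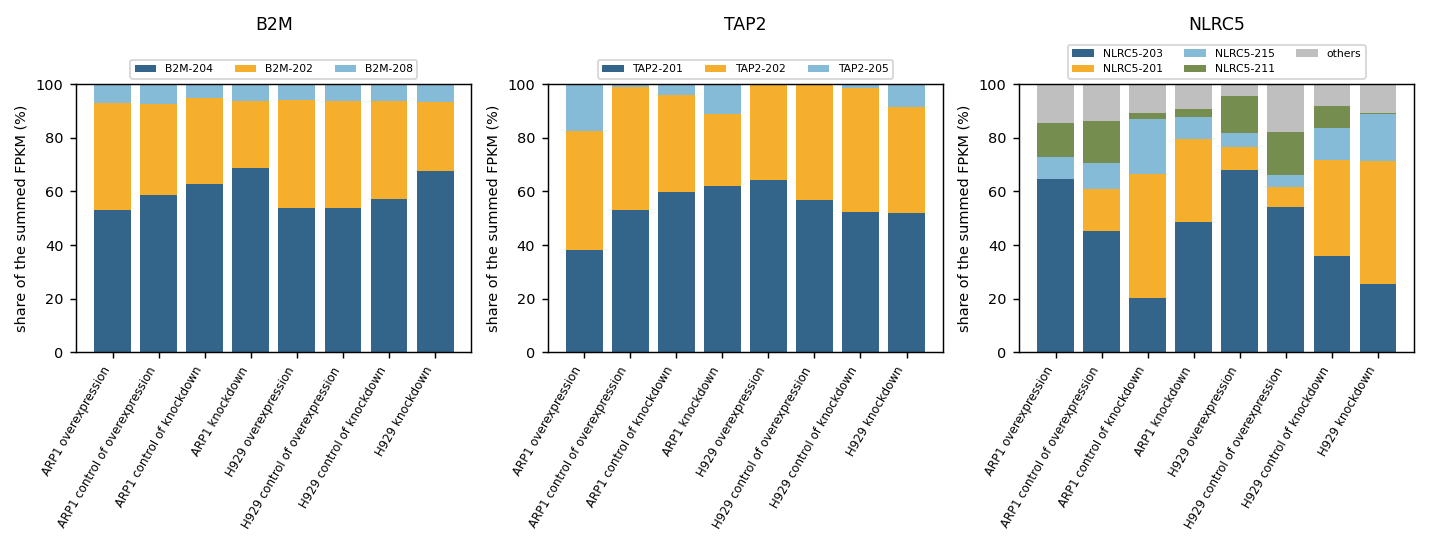
Share of the summed FPKM of B2M, TAP2 and NLRC5 held by each transcript (stacked bars, %) in the 8 libraries. B2M-202 holds 25.1% and 25.8% in the libraries labelled knockdown, and NLRC5-201 holds 16.0% or less in the overexpression arms and 30.9% or more in the knockdown arms.

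Several of these genes share sequence or position with others, which limits how surely their reads were assigned. Of the 1498 windows of 50 bases in HLA-B-249, 30 also occurred in HLA-C-201, and donors of cell lines carry alleles of HLA-B and HLA-C that differ from the reference, so the split of reads between the heavy chains is uncertain. In the annotation HLA-B overlaps HLA-C on the same strand through the span of the short transcript HLA-B-258 (chr6:31269491-31355404). The main transcripts HLA-B-249 (31353872-31357187) and HLA-C-201 (31268749-31272086) do not overlap. TAP2 overlaps the protein-coding gene AL669918.1 (mean 2.79 FPKM) on the same strand. On the other strand, TAP1 overlaps PSMB9 and PSMB8-AS1, ERAP1 overlaps CAST and a pair of antisense genes, and NLRC5 overlaps the antisense gene AC023825.2. How strand was handled in the authors' counting was not stated.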

How the data were processed

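The deposited table holds 8 columns of FPKM values, 1 per library and transcript, computed by the authors and called means, with the number of runs behind a column not stated. The submitters' processing notes name Bowtie 0.12.2, HISAT2 2.0, StringTie 1.3.0 and the mouse build mm8. The transcripts are human Ensembl identifiers, so the human build behind the values is unknown here. Read depth is not given either, so no counting error can be set on a value, and low FPKM may be estimates. Per the labels' protocols, poly(A) RNA was sequenced in pairs on Illumina machines.

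Transcripts were joined by identifier to GENCODE 29 (GRCh38): 87707 of 88209 matched, and FPKM were summed per gene (24351 genes). Libraries summed to 631871 to 693299 FPKM, with 13084 to 14092 genes at 1 FPKM or more. The 14905 genes that reached an FPKM of 1 in 2 or more libraries were tested with limma 3.58.1 in R 4.3.3 on log2(FPKM + 1), with genotype and cell line as terms, a variance trend, two-sided tests and Benjamini-Hochberg adjustment over all genes tested (threshold 0.05, 3 residual degrees of freedom). Log2 differences and folds are on that scale, which understates changes of low genes. The block pairs libraries of the same cell line. The script was tested on simulated data for the overexpression comparison (14905 genes), where 4 unshifted genes were called. Named are all 9 genes, per list up to 4 genes with the largest differences in the contrast described, the 4 genes nearest to each of the 2 most variable of the 9, and the top transcripts of a gene. Genes named by arm, B2M-202, TAP2-205 and HLA-B-258 were singled out after their values were seen. The genes, lists, motifs and tests were chosen with earlier results of these data known. Shared windows were counted at 50 bases, a length set after a longer one gave almost none. Some genes of the pathway lists are not reported here.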

Additional observations from a re-analysis of the deposited data

Results flagged for a closer look

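Several genes had opposite signs in the lines under the same contrast. These are differences in log2(FPKM + 1) of 1 library against 1 library, and whether the lines differ was not tested. For overexpression minus its control, HLA-E had -0.20 in ARP1 and 0.17 in H929. B2M had -0.029 and 0.13, ERAP1 -0.16 and 0.12, and NLRC5 -0.071 and 0.16, in the same order. For knockdown minus its control, TAPBP had 0.28 in ARP1 and -0.028 in H929. No library of a line lay far enough from the other 3 to pass Dixon's test for 4 values for any of the 9 genes.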

How the results depend on the processing

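Under 21 alternative settings, of which the fit of whole arms was added after seeing the data, 0 of the 9 genes were called in any of the 4 comparisons of genotypes. The 2 lines per genotype and the unknown read depth limit every call, and the cause of each change below was not tested. Between the lines 5 of the 9 were called, against 3 with TPM-like scaling, 3 with no replicate block, 3 with no variance trend and 2 to 6 with one library left out, the 6 including TAP2. Among all genes, overexpression called 1, which became 5 with no filter on low values, 0 with both controls pooled, 0 without transcripts under 300 nt, 0 with protein-coding transcripts only and 0 to 3 with one library left out. Knockdown called 2, which became 1 with a pseudocount of 0.1, 8 with no filter, 0 at FPKM of 5 or more, 1 with TPM-like scaling, 0 with no replicate block, 0 with pooled controls, 5 with no trend, 0 without short transcripts, 0 with coding ones only and 0 to 1005 with one library left out, the highest without the H929 library labelled knockdown. The difference of effects called 2, which became 1 (pseudocount), 12 (no filter), 0 (no short transcripts), 0 (coding only) and 0 to 49 (one library left out, the highest without that same library). The controls called 8, which became 2 with no block, 3 without short transcripts, 4 with coding ones only, 201 for whole arms and 0 to 14 with one library left out. The lines called 4035, which became 1924 with no filter and 1948 to 4136 with one library left out. Signs turned in 24 cases, none of them called. For overexpression these were HLA-E (0.0016, median-ratio scaling), B2M (-0.040) and NLRC5 (-0.086) with pooled controls and ERAP1 (0.014, length-weighted). For knockdown it was TAP1 (0.098, pooled controls), and between the lines TAPBP (-0.00098, TPM-like). Between the controls these were TAP2 (-0.0069) and ERAP1 (-0.011) when length-weighted, and HLA-E (-0.19) and ERAP1 (-0.013) for whole arms. With one library left out, overexpression ranged from -0.23 to 0.20 for HLA-E, -0.13 to 0.085 for ERAP1, -0.013 to 0.12 for B2M and -0.058 to 0.14 for NLRC5. The difference of effects ranged from -0.20 to 0.0098 for ERAP1, and knockdown from -0.026 to 0.13 for HLA-B. The controls ranged from -0.015 to 0.063 for HLA-E, -0.071 to 0.14 for ERAP1, -0.12 to 0.17 for TAP2 and -0.21 to 0.024 for TAPBP. Against the other control of the line, 20 of 36 differences within a line moved by more than the gene's residual SD. Fits of only the 4 libraries compared, and of pooled controls, apply to some of the comparisons and gave no value for the others. Between the lines, leaving out either library of a genotype gave the same difference, so these settings are not separate checks.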
